A study of Homo sapiens with 34 samples.

Results

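RNA polymerase II (Pol II) regions that lay at the ends of protein-coding genes in both conditions were taken from peak lists of DLD1 (DNTCF) cells. They were chosen as regions of the uninduced Pol II list, on chromosomes 1 to 22 and X, that were under 5000 bp wide, overlapped a region of the induced list by at least 1 bp, and came within 1000 bp of either end of a RefSeq protein-coding gene. The rule selected 13713 of 57247 uninduced regions (24.0%). The regions were thus chosen by the positions, widths and overlap of called Pol II peaks in both conditions, so the presence of these regions in both lists is a choice and not a result. They are called gene-end regions here, where an end is either the start or the end of the gene.

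DLD1 is a colorectal adenocarcinoma cell line, and the DNTCF derivative carries a tetracycline-inducible dominant negative TCF7L2. Cells given 1 µg/mL doxycycline for 24 h (induced) were set against cells left without it (uninduced), and both were kept in zeocin and blasticidin. Every group carried the transgene, so effects of doxycycline itself and of the transgene product cannot be told apart. The series held 34 samples, of which 8 were chromatin immunoprecipitations for Pol II or H3K27ac, with 2 per antibody and condition, 2 were inputs and 24 were RNA-seq samples not analysed here. Per the labels, ChIP libraries were read as 75 bp single reads at 40 to 55M reads per sample. One peak list served both samples of a condition, so no difference between conditions below has a replicate check, and no p-value is given. Intervals are Wilson 95% intervals and cover counting error only, and regions are not replicates.

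Pol II transcribes protein-coding genes. In human cells it often pauses shortly after initiation, and this pause gives a narrow accumulation just downstream of the transcription start. After the polyadenylation signal has passed, Pol II continues beyond the annotated gene end, slows, and is released once the transcript has been cleaved. H3K27ac, acetylation of lysine 27 of histone H3, marks active promoters and enhancers. TCF7L2 carries the output of β-catenin to Wnt target genes, and its dominant negative form blocks that output.

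The promoters shown first are windows from 250 bases before to 50 bases after the RefSeq start, on GRCh38.p14. Capitals mark matches, on either strand, to the motifs counted further on. WDR74 and MKNK2 have 2 of the strongest start regions, CHI3L1 and TLR3 have start regions that stood lower in the induced list, and RNF43 is a Wnt feedback gene. WDR74 (chr11:62839541-62839840, minus strand) holds an ETS core at base 236 and a YY1 core at base 271, counted from the 5′ end of the window. MKNK2 (chr19:2051195-2051494, minus strand) holds 3 GC boxes and a TATA box at base 222. CHI3L1 (chr1:203186655-203186954, minus strand) holds a TATA box at base 224 and none of the other motifs. TLR3 (chr4:186068906-186069205, plus strand) holds 1 GC box at base 10, and RNF43 (chr17:58417485-58417784, minus strand) holds 2 CCAAT boxes.
WDR74: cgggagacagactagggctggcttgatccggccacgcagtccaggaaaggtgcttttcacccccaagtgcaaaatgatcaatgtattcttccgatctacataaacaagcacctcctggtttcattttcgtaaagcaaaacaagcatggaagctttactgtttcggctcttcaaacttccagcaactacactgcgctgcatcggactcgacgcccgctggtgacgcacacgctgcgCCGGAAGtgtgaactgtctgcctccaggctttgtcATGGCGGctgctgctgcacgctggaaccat
MKNK2: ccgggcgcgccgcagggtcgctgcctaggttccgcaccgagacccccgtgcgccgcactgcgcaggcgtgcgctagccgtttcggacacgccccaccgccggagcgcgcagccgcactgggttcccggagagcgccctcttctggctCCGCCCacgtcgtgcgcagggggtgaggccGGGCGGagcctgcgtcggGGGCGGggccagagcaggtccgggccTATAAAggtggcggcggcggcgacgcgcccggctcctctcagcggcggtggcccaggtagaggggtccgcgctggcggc
CHI3L1: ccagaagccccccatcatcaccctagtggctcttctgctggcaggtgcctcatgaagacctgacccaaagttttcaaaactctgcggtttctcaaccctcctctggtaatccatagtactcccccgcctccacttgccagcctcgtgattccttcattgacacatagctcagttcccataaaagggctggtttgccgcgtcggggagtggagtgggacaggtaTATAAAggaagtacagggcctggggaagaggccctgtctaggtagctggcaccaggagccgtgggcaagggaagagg
TLR3: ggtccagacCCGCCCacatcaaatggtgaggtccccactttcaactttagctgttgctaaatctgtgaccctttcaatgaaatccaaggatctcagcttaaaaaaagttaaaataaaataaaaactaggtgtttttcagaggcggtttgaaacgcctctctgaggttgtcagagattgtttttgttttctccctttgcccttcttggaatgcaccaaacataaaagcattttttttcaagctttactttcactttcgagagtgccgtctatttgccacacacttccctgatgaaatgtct
RNF43: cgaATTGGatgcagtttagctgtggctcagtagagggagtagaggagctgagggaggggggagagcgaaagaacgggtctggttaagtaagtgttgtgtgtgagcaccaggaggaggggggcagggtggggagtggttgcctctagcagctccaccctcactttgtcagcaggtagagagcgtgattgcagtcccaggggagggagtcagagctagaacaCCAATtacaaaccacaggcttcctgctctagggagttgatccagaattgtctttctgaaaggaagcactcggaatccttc

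Most gene-end regions lay at gene starts. Strand was known for 15812 of 19974 protein-coding genes (79.2%), and 11455 gene-end regions reached an end of such a gene. Of these, 7618 reached only starts (66.5%, interval 65.6 to 67.4%), 3064 reached only ends (26.7%, interval 25.9 to 27.6%) and 773 reached a start and an end (6.75%). The other 2258 reached only genes of unknown strand. Among the 773, the start and end belonged to the same gene in 214 and only to different genes in 559. Of the 8391 regions that reached a start, 1010 reached starts on both strands, as a divergent gene pair does. With regions near the limits given once, the widest gene-end region was 4997 bp and the narrowest one left out for width was 5010 bp. The farthest lay 1000 bp from a gene end, the nearest left out at 1001 bp, and 10469 (76.3%) overlapped a gene end directly. An induced region covered a median of 88.8% of each region, and 62 regions rested on an overlap under 50 bp.

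Start regions and end regions differed in where Pol II peaked. At start-only regions the strongest summit lay a median of 47 bp downstream of the gene start in induced cells (middle 50% from -75 to 105 bp) and 44 bp in uninduced cells. It lay 0 to 150 bp downstream in 47.5% of induced and 46.4% of uninduced regions. At end-only regions the strongest summit lay a median of 661.5 bp past the gene end in induced cells (middle 50% from -380 to 1248 bp) and 598.5 bp in uninduced cells. It was past the end in 68.4% (interval 66.7 to 70.0%) of induced and 66.9% (65.2 to 68.6%) of uninduced regions. The rule kept only regions within 1000 bp of a gene end, so Pol II regions farther past the end were left out. The distances at ends are therefore limited in part by the rule, and other windows were not tried for them. Within a region pair, the induced and uninduced summits lay a median of 17 bp apart at starts and 187 bp apart at ends. Binomial 95% intervals of the medians at ends ran from 608 to 711 bp in induced cells and from 554 to 639 bp in uninduced cells. Both medians come from the same region pairs, so overlap of these intervals does not tell whether the positions differed.

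**Figure D1:**
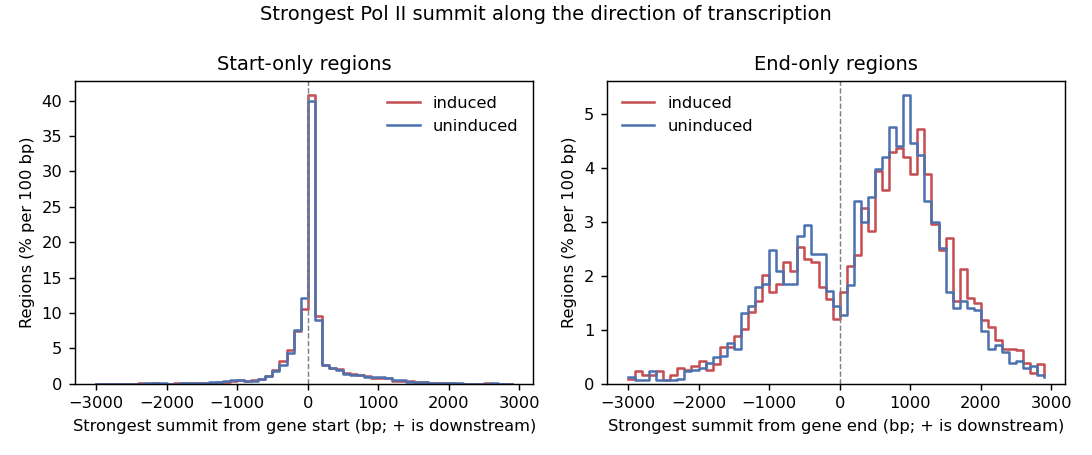
Position of the strongest Pol II summit of each region along the direction of transcription, in bins of 100 bp, as a percent of the 7618 start-only (left) and 3064 end-only (right) regions. Red is induced and blue uninduced, the dashed line is the annotated gene start or end, and the few farther summits are not drawn. Start regions peak in the first bin downstream of the start (40.7% induced, 40.0% uninduced), while end regions spread broadly with most beyond the gene end.

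End-only regions lay past the gene more often than inside it. Of the 3064, 45.8% lay wholly beyond the annotated end, 33.7% spanned it and 20.5% lay wholly on the gene side. Their nearest genes numbered 2625, and 81.3% of these (interval 79.7 to 82.7%) also had a gene-end region at the start, against 57.8% of the 15812 genes with strand. The median length of these genes was 19.5 kb, against 41.3 kb for genes with a region at the start and none at the end, and 25.6 kb for all genes with strand. In all, 9142 genes had a gene-end region at the start, 3598 at the end and 2924 at both.

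Enrichment was higher at starts than at ends. Fold enrichment is the authors' ratio over the caller's local background, and each region carries its highest summit. Its median was 23.4 in induced cells and 24.5 in uninduced cells at start-only regions, and 22.6 and 23.5 at regions reaching a start and an end. At end-only regions it was 4.81 in induced and 4.91 in uninduced cells. Shared regions away from gene ends (24428) had a median of 4.36 in induced and 4.67 in uninduced cells. End-only regions were wider than those away from gene ends, with a median width of 1138 bp induced and 1463.5 bp uninduced against 638 bp and 794 bp away from gene ends. They also held 2 or more summits more often than start-only regions, in 62.1% against 50.6% of induced regions and 67.8% against 47.8% of uninduced regions.

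**Figure D2:**
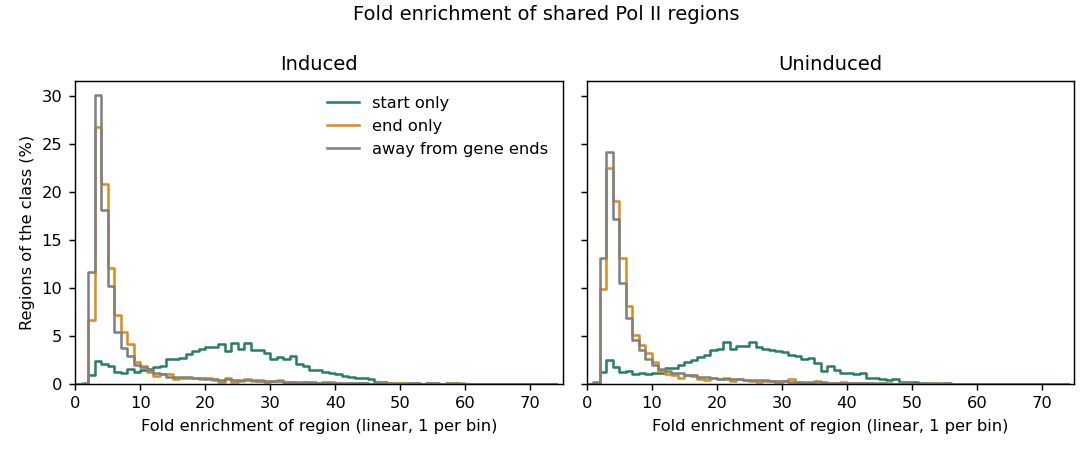
Distribution of fold enrichment in the induced list (left) and the uninduced list (right) for start-only, end-only and away-from-gene-end shared regions, in bins of 1 fold as a percent of each class. Start-only regions form a broad hump around medians of 23.4 and 24.5 with a small group under 10, while end-only and distant regions are concentrated under 10.

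The strongest start-only regions by uninduced −log10 q included several with a second gene beneath them. Of all gene-end regions, 19.1% overlapped a lncRNA gene, 0.241% a snoRNA gene and 0.0656% an snRNA gene. MKNK2 encodes a kinase of the translation initiation factor eIF4E, and its region (chr19:2049559-2052391) had a fold of 68.1 in induced and 59.4 in uninduced cells. POLR2A, the largest subunit of Pol II itself, shares a start region with ZBTB4 (chr17:7482559-7485508) at 66.5 induced and 55.1 uninduced. CEBPA, a transcription factor of differentiating cells, had a start region at 61.2 induced and 63.1 uninduced. The region at WDR74 (chr11:62837653-62842466), 59.3 induced and 66.1 uninduced, overlapped RNU2-2, a gene for the U2 spliceosomal RNA. The region at TAF12 (chr1:28647098-28649695), 67.5 induced and 55.2 uninduced, overlapped RNU11, a minor spliceosome RNA. The region at LOC124900276 lay over SNHG7 and 2 small nucleolar RNA genes, with folds of 51.0 induced and 62.3 uninduced.

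Of the 6 strongest end-only regions, 3 lay over genes of non-coding RNAs. At TMEM107 (57.7 induced, 48.6 uninduced) the region overlapped SNORD118, a small nucleolar RNA gene, at IGBP1C (59.6 induced, 49.0 uninduced) an snRNA gene LOC124904122, and at ACTRT3 (28.4 induced, 53.3 uninduced) TERC, the RNA component of telomerase. For these an end-only label describes the protein-coding annotation only. The others were RPL27A (25.1 induced, 39.7 uninduced), a ribosomal protein gene, PDPK1 (30.7 induced, 43.4 uninduced), a kinase upstream of AKT whose region overlaps a transcribed pseudogene, and ID2 (40.0 induced, 42.7 uninduced), an inhibitor of basic helix-loop-helix factors. Over the gene bodies of 10 snRNA genes lay 9 gene-end regions, with a median fold of 49.9 induced and 48.7 uninduced. These 9 were 0.0656% of gene-end regions. They gave 5 of the 100 highest folds among gene-end regions in the induced list and 4 of the 100 in the uninduced list. Their folds spanned 7.62 to 67.5 in induced and 11.6 to 66.1 in uninduced cells, with RNU11, RNU2-2, RNU12, RNU4-1 and LOC124904122 near the top and RN7SK lowest. At RN7SK, RNU6-9, RNU6-2 and LOC124900516 the strongest summit lay outside the snRNA gene in both lists. Those folds cannot be assigned to the snRNA genes themselves. The snRNA grouping was chosen after the values were seen, and near-identical copies of these short genes make their read assignment uncertain.

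H3K27ac, which took no part in choosing the regions, separated starts from ends. An H3K27ac region was overlapped by 97.5% of start-only regions in induced cells (interval 97.1 to 97.8%) and 97.4% in uninduced cells. For end-only regions the shares were 25.6% (24.1 to 27.2%) induced and 26.7% (25.2 to 28.3%) uninduced. Shared regions away from gene ends had 66.6% induced and 66.7% uninduced, and unshared uninduced regions at gene ends 25.5% and 26.4%. The difference between starts and ends was also present at like fold. Among regions with an uninduced fold of 5 to 10, start-only regions overlapped H3K27ac in 88.6% induced and 87.7% uninduced, end-only regions in 23.6% and 26.1%, and distant regions in 82.1% and 82.2%. Start-only regions with an uninduced fold above 17.5 overlapped in 100% of cases in both conditions, against 90.0% induced and 89.5% uninduced of the 1902 at or below it. The 180 start-only regions without H3K27ac in either list (2.36%) had a median fold of 4.07 induced and 4.13 uninduced, far below the 23.8 and 24.8 of those with it in both.

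**Figure D3:**
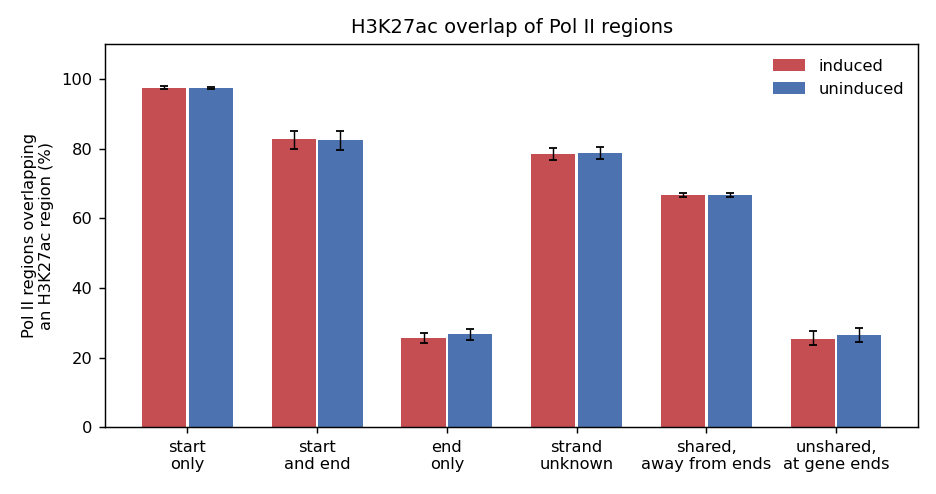
Percent of Pol II regions of each class that overlap an H3K27ac region, with induced bars left of uninduced bars and Wilson 95% intervals as error bars. Start-only regions reach 97.5% and 97.4%, end-only regions 25.6% and 26.7%, and the shares in induced and uninduced cells lie within 2 percentage points in every class.

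Among end-only regions, those with H3K27ac were the stronger ones. The 753 that overlapped H3K27ac in both lists had a median fold of 7.62 induced and 8.26 uninduced, against 4.39 and 4.41 for the 2213 without it in either list. Of the 766 with an uninduced fold above 7.43, 55.0% overlapped H3K27ac induced and 55.4% uninduced. The start of a lncRNA gene lay within 1 kb of 96 end-only regions, of which 55.2% overlapped H3K27ac induced and 56.2% uninduced. Leaving out all regions with any such start, any start of the promoter table, or an end of a gene of unknown strand within 1 kb left 2735, with 22.8% induced and 23.9% uninduced.

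The place of a region is the percentile of its fold among all 39838 shared pairs of the list, and a shift is the induced place minus the uninduced place, called when over 25 percentile points. Over all shared pairs 4.74% were called higher in the induced list and 4.01% lower. Of the gene-end regions, 366 (2.67%) were called higher and 203 (1.48%) lower. This contrast is the one that chose the regions, so the counts are a description. The scale also limits them, since a region in the top 25% of places in the uninduced list cannot stand 25 points higher. The median uninduced place was 83.1 at start-only and 38.8 at end-only regions, and 27.6% of start-only against 93.5% of end-only regions had room to be called higher. A start region could therefore change its fold strongly and still not be called. The median shift was -0.83 at start-only regions and 0.14 at end-only regions. The higher calls were mostly pairings of unequal regions: in 278 of the 366 (76.0%) the induced region spanned 2 or more uninduced regions, as it did for 8.96% of all gene-end regions and 2.46% of the 203 lower calls. When only pairs of 1 induced with 1 uninduced region were kept (30226 shared pairs, of which 2.86% were higher and 3.36% lower), 108 of 10782 gene-end regions (1.00%) were higher and 133 (1.23%) lower. The 5 largest upward shifts at starts, at TWF2, PDXK, CRLS1, PGAP2 and RPS19, all had such a merged induced region. The TWF2 region, for instance, had a fold of 42.2 in the induced list over a 7471 bp region and 2.34 in the uninduced list over 938 bp, while a stronger uninduced neighbour under the same induced region had 33.5.

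**Figure D4:**
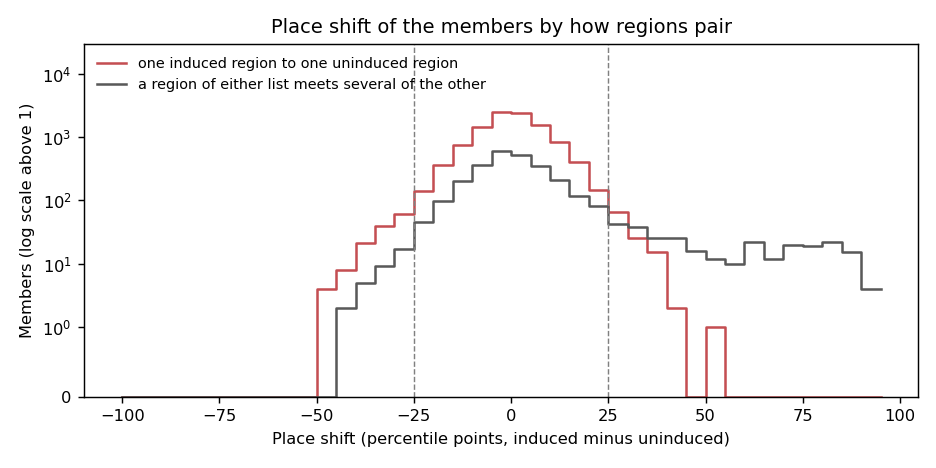
Place shift of the 13713 gene-end regions, induced minus uninduced, in bins of 5 percentile points on a log count axis. Red shows the 10782 one-to-one pairs, placed among one-to-one pairs, and grey the others, placed among all shared pairs; dashed lines mark 25 points either way. The upward tail past 60 points belongs to the grey line only.

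Regions that stood lower in the induced list were small and of modest fold, with a median width of 454 bp induced and 934 bp uninduced and a median fold of 3.11 induced and 5.59 uninduced over the 203. The largest at starts were CRYZ, CHI3L1, TLR3, RNF157 and DOK7. At CRYZ, an NADPH quinone oxidoreductase, the region (chr1:74731419-74732095) had a fold of 3.11 induced and 8.24 uninduced. Its strongest summit lay 1347 bp downstream of the gene start in induced and 1383 bp in uninduced cells. At CHI3L1, which encodes a secreted chitinase-like protein, the fold was 3.18 induced and 7.62 uninduced. At TLR3, a sensor of double-stranded RNA, it was 3.49 induced and 10.2 uninduced, and its strongest summit sat at -329 bp from the gene start in induced and at 22 bp in uninduced cells. At ends the lowest were ASNS, LY6G6D with LY6G6C, and C6orf141. ASNS encodes asparagine synthetase, and its end region had a fold of 2.78 induced and 7.24 uninduced. Its −log10 q was 1.80 induced and 21.6 uninduced, so the induced region was barely called. The one-to-one regions with the largest upward shifts at starts, named after their values were seen, were RAB3D, PRUNE2, IHH, FOXD3 and CIAO2B with CES2. RAB3D, a small GTPase of regulated secretion, had a fold of 8.52 induced and 2.81 uninduced. PRUNE2 had 6.15 induced and 2.89 uninduced, with no H3K27ac region in either condition. IHH, a hedgehog ligand of the intestinal epithelium, had 4.83 induced and 2.28 uninduced, with a −log10 q of 9.90 and 1.51, the latter near the lowest in the list. All 5 stayed below a fold of 10 in both lists, far under the start-only medians.

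End-only regions with large upward shifts showed the same pairing of unequal regions. At CAPRIN1, an RNA-binding protein gene, the end region had a fold of 46.4 induced over 3477 bp and 2.67 uninduced over 423 bp, and the uninduced neighbour under the same induced region had 37.7. AP2M1 and ADAM15 also had an induced region that spanned 2 uninduced ones. The one-to-one end-only regions with the largest upward shifts, again named after their values were seen, lay at DEPDC1 (5.26 induced, 2.88 uninduced), ZNF275 and EXPH5. None of these 3 overlapped H3K27ac in either condition.

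The H3K27ac values of the regions called for Pol II were read beside them. H3K27ac places were taken by the highest fold of the overlapping H3K27ac regions, among the 10554 gene-end regions that overlapped H3K27ac in both conditions. The 77 one-to-one regions called lower for Pol II had a median H3K27ac shift of -3.59, with 63 lower (81.8%), and the 48 called higher had a median of 3.84, with 38 higher. Over all 9028 such one-to-one gene-end regions the median was -0.27, with 4603 lower (51.0%). Pol II and H3K27ac lists of a condition come from different immunoprecipitations, and the sources used here do not say whether they shared an input. Whether the input or another shared source moved with both was not tested.

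Gene lists were read against 57.8% of genes with a gene-end region at the start and 22.8% at the end. Cell cycle genes had a start region in 20 of 22 and Pol II machinery genes in 28 of 32, and an end region was found in 9 of the 22 and in 10 of the 32. Cytosolic ribosomal protein genes had 48 of 62 at starts and 32 of 62 at ends, and replication-dependent histone genes 32 of 64 and 33 of 64, where neighbouring histone genes share regions. A further 22 histone genes and 14 ribosomal protein genes had their start only in a shared region of 5000 bp or wider, which the width limit left out. Immediate early genes had 14 of 23 at starts and 11 of 23 at ends, ATF4 stress genes 7 of 16 at each, and 7 more genes of either list had only such a wide region at the start. Over the 15812 genes with strand, 783 had only such a wide region at the start. So did 5 housekeeping, 4 Pol II machinery, 2 Wnt, 2 colonocyte and 2 cell cycle genes and 1 liver, muscle or neuron marker. No goblet gene or immune, stromal or endothelial marker did. Colonocyte genes had 9 of 23 at starts and 6 of 23 at ends, goblet and secretory genes 4 of 14 and 3 of 14, and Wnt and TCF targets 13 of 22 and 5 of 22. Housekeeping genes had 12 of 17 and 8 of 17. Liver, muscle and neuron markers had 4 of 11 at starts and 5 of 11 at ends, and immune, stromal and endothelial markers 3 of 9 and 2 of 9.

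Place shifts of the list genes at starts were given beside those of all genes, on a scale that leaves strong regions little room to stand higher, so an uncalled shift does not show a small difference in fold. The median over all 9142 genes with a start region was -0.82, with 5007 below 0. It was 7.34 for the 9 colonocyte genes, with 6 above 0, 5.24 for the 4 goblet genes, 0.05 for the 13 Wnt and TCF targets and -4.16 for the 7 ATF4 genes, of which 6 were below 0. Medians were 1.00 for histone, 0.44 for Pol II machinery, -0.01 for immediate early and -0.61 for ribosomal protein genes. Cell cycle genes had -1.84 and housekeeping genes -1.36. The 3 immune, stromal and endothelial markers (-4.17) and the 4 liver, muscle and neuron markers (-4.83) stood as low as the ATF4 genes. KLF5, an epithelial transcription factor, was the only gene of these lists with a start region over 25 points, with a fold of 4.26 induced and 2.66 uninduced. Its region was weak, at place 34.4 induced and 3.66 uninduced. Over all 9142 genes with a start region, 24 were over 25 points higher and 58 lower, so single calls are rare in any list. LGALS4, a galectin of intestinal epithelium, had 6.52 induced and 4.71 uninduced. Among Wnt targets, EPHB3 had 23.8 induced and 40.6 uninduced and EPHB2 18.9 induced and 26.3 uninduced, both ephrin receptors of the crypt. LGALS4, EPHB3 and EPHB2 lay within 25 points of place.

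Ribosomal and growth genes held both higher and lower places. RPS26, a protein of the small ribosomal subunit, had a fold of 40.0 induced and 20.3 uninduced, a shift of 20.44. RPS7, of the same subunit, had 20.9 induced and 42.0 uninduced, a shift of -19.08. These stood at opposite ends of one list whose median shift was -0.61. MCM7, a subunit of the replicative helicase whose region also reaches the start of AP4M1, had 33.3 induced and 18.6 uninduced. PLK1, a mitotic kinase, had 22.4 induced and 12.5 uninduced. CCNE1, the cyclin of S phase entry, had a shift of -11.34. Cell cycle genes stood on both sides, with 8 shifts above 0 and 12 below. POLR2E, a subunit shared by the nuclear RNA polymerases, had 37.0 induced and 21.9 uninduced, and its H3K27ac place was 76.7 points higher in the induced list. CCNT1, the cyclin of the kinase that releases paused Pol II, had 14.3 induced and 24.0 uninduced. SDHA, a housekeeping gene of the respiratory chain, had 19.3 induced and 41.2 uninduced, a shift of -20.91. XBP1, a factor of secretory cells, had 39.0 induced and 26.6 uninduced. BTG2, an immediate early antiproliferative gene, had 52.3 induced and 33.3 uninduced. SESN2, a stress-induced regulator of growth signalling, had 18.9 induced and 34.6 uninduced.

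Of the genes of the Wnt pathway itself, CTNNB1, which encodes β-catenin, had a start region (chr3:41198563-41200187) of fold 48.4 induced and 52.4 uninduced. TCF7L2 had one of 8.34 induced and 10.6 uninduced, and RNF43, which removes Wnt receptors from the cell surface, one of 23.3 induced and 20.5 uninduced beside a shared region of 7424 bp left out for width. MYC, a growth-promoting transcription factor, had a region of 20.4 induced and 22.7 uninduced beside a shared one of 5329 bp left out for width, and LGR5, a receptor of intestinal stem cells, one of 26.8 induced and 28.4 uninduced; their strand was not in the table, so start and end were not told apart. The MYC region lay over the higher-coordinate edge of the gene. The places of these 5 regions differed by less than 5 points between the lists, which does not describe the regions left out for width. AXIN2, SP5, ASCL2, GUCA2A and CDX2 had no gene-end region. Their Pol II regions there were 14068 and 8358 bp wide at AXIN2, 6457 bp at SP5, 15590 bp at ASCL2, 7116 bp at GUCA2A and 5027 and 6939 bp at CDX2, all over the width limit, and SP5 had a further narrow region found in the uninduced list alone. No region of the uninduced Pol II list reached an end of GUCY2C.

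Markers of intestinal epithelium gave 9 of 16 genes with a gene-end region, against 4 of 15 markers of other cells. Over all 19974 protein-coding genes the share was 60.1%, which is near the 56.2% of the epithelial markers. The regions of single epithelial markers differed in both directions. ELF3, an epithelial transcription factor, had a start region of fold 59.2 induced and 30.5 uninduced, a shift of 9.15. VIL1, an actin-binding protein of the brush border, had a region that stood lower in the induced list by over 25 points, with a fold of 2.97 induced and a shift of -31.98. EPCAM, an epithelial adhesion protein, had a region of 20.7 induced and 21.9 uninduced and a weaker one with a shift of -24.44. KRT8, a keratin, had an end region with a shift of -6.45. KRT19, CDX2, CLDN4 and CLDN7 had another Pol II region at an end, and KRT20, CDH17 and GPA33 had none in the uninduced list. The 4 markers of other cells were CD3E, CD14, COL1A1 and RBFOX3.

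Promoter sequence, which the rule did not use, differed between genes with a start region and genes with no uninduced Pol II region at the start. The motifs were searched on both strands, and a promoter counted once. They were the TATA box TATAAA, then the CCAAT box CCAAT, next the GC box GGGCGG, the ETS core CCGGAAG, the YY1 core ATGGCGG, the NRF1 core GCATGCG, the cAMP response element TGACGTCA, the AP-1 motif TGACTCA and the TCF core CTTTGAT. No motif contains another. Promoters of the 9142 genes with a start region had a median GC content of 65.3%. Their median CpG ratio of observed to expected was 0.85. All 15812 promoters had 62.7% and 0.76. The 5709 genes with no region of the uninduced Pol II list at the start had 55.3% and 0.36. Without Pol II refers here to the uninduced list alone, whatever the induced list holds. A GC box was in 71.5% of promoters with a start region, against 58.5% of all and 36.3% without Pol II. The ETS core was in 20.3%, against 14.2% of all and 4.10% without, and the YY1 core in 11.0%, against 7.63% and 2.29%. The TATA box went the other way, at 5.26%, against 9.64% of all and 16.7% without, and the CCAAT box did not separate the sets (36.5%, against 36.3% and 35.8%). The TCF core was in 1.33%, against 1.95% and 3.01%. Among genes with a start region, the 2287 with the highest uninduced fold held a GC box in 76.6% and an ETS core in 22.9%, against 61.5% and 13.6% of the 2286 with the lowest. The TATA box was in 6.38% and 6.43% of these sets. Of the 58 genes whose start region stood over 25 points lower in the induced list, 1 held the TCF core (1.72%, interval 0.305 to 9.14%). Base composition differed between the sets, and its part in these shares was not tested. A match is a run of letters, not a bound site.

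**Figure D5:**
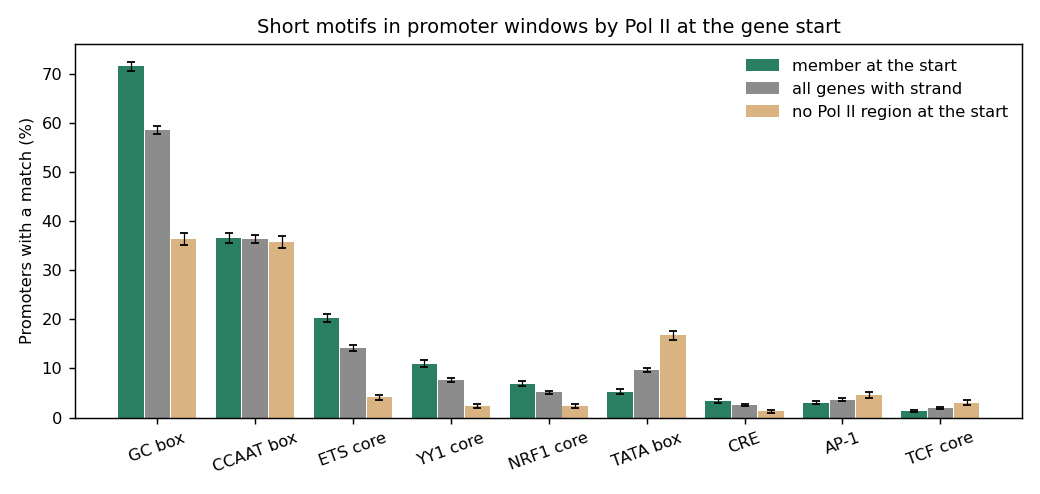
Percent of promoter windows with at least 1 match to each motif, with Wilson 95% intervals as error bars. Sets are genes with a gene-end region at the start (9142), all with strand (15812) and those with no uninduced Pol II region there (5709). The GC box, ETS core and YY1 core are more frequent with a start region and the TATA box is less frequent, while the CCAAT box is near 36.5% in the first set and 35.8% in the last.

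The promoters printed at the beginning can be read against these shares. The WDR74 window lies inside its region, but the strongest summit was at -2015 bp (induced) and -2095 bp (uninduced) from the RefSeq start used, where a negative sign means upstream. The uninduced summit lay inside RNU2-2 and the induced one just outside it. For MKNK2 the strongest summit was 63 bp downstream of the start in induced and 67 bp in uninduced cells. For RNF43 it was 51 and 53 bp downstream. CHI3L1 had it at -87 bp in induced and -25 bp in uninduced cells. The windows of TAF12, TWF2, PDXK and CRYZ lay outside the region named for them and are not printed.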

How the data were processed

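Chromatin immunoprecipitation peak lists for Pol II and H3K27ac of induced and uninduced DLD1 (DNTCF) cells were used, 1 list per antibody and condition, each serving 2 samples. Depth per sample is known only as the range of reads in the labels. Whether reads were pooled before calling, and which input served as control, the sources used here do not say. Per the submitters' processing notes tools included MACS2 (2.1.1.20160309), which by name calls peaks, and BWA (0.7.17-r1188), and builds were hg19 and hg38. Regions of the uninduced Pol II list on chromosome 17 extend to 83208916, which exceeds its hg19 length, so positions were read as hg38. The authors' deposited lists give, per summit, a fold (a ratio over local background), a −log10 q and a score, beside a p-value column not used. The lowest deposited −log10 q was 1.30. Places were taken within a list, and folds of the 2 lists were set side by side without scaling one to the other. The Pol II lists differed in length, with 50665 induced and 57247 uninduced regions. The median ratio of induced to uninduced fold over the gene-end regions was 0.94.

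Summits off chromosomes 1 to 22 and X were left out (0.374% of each Pol II list). Rows of a region were collapsed to their highest fold and −log10 q. Genes, strand and promoters came from RefSeq tables of GRCh38.p14, matched by gene ID. A gene start is the outermost edge of the gene, which equals the start in the promoter table for 83.8% of genes. Shares have Wilson 95% intervals. Overlap routines were checked on simulated intervals against brute force (1511 of 1511 passed), with Python 3.11.15, pandas 2.3.3, numpy 2.4.6 and scipy 1.17.1. The regions, gene lists, markers and motifs were chosen with earlier results of these data known. Named genes are the 6 strongest regions at starts and at ends, the 5 largest place shifts each way at starts and 3 each way at ends, 11 Wnt and intestinal genes, and up to 3 per gene list, of which some are given by name only or in part. The printed promoters were to be those of the first 3 strongest and the first 2 shifts each way and of AXIN2. They were kept to those inside the region named, and TLR3 and RNF43 were added after the values were seen.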

Additional observations from a re-analysis of the deposited data

How the results depend on the processing

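No paired analysis was possible because 1 peak list serves both samples of a condition, and for the same reason no replicate could be left out. The balance of place-shift calls turned round with one-to-one pairs, where 108 gene-end regions were higher and 133 lower, against 366 and 203 over all pairs, and the median shift was 0.11 against -0.58. Some small differences turned round or closed as well. The start-only H3K27ac share was 97.51% induced and 97.37% uninduced as reported. With at least 50% of the Pol II region covered it was 95.90% induced and 95.93% uninduced. Histone genes at starts and ends numbered 32 and 33 as reported, and 32 and 31 with a window of 500 bp. Liver, muscle and neuron markers numbered 4 and 5 as reported, and 3 and 3 with that window. Of the alternative values, 42 stayed within the interval or within 1.5 times the count of the reported value and 44 moved further; the cause was not tested. The share of start-only regions was 72.8%, 59.6%, 73.1% and 76.4% (windows of 500 and 2000 bp, −log10 q of at least 5, and isolated genes of 5 kb or longer). Under the same 4 settings, the share reaching a start and an end was 5.28%, 9.87%, 7.23% and 0% and the end-only share 21.9%, 30.6%, 19.7% and 23.6%. On isolated genes, an alternative added after seeing the data, median summit positions were 52 bp induced and 48 bp uninduced at starts, and 813 and 764 bp at ends. Higher calls among gene-end regions numbered 223 (−log10 q of at least 5), 948 (over 15 points) and 184 (over 40 points), and lower calls 131 (places by −log10 q), 916 (over 15) and 28 (over 40). With at least 50% of the Pol II region covered, H3K27ac shares were 95.9% induced and 95.9% uninduced (start only), 18.5% and 18.7% (end only) and 63.8% and 64.2% (away from gene ends). With H3K27ac regions of −log10 q of at least 10 they were 96.4% and 96.4%, 21.8% and 22.3%, and 62.3% and 62.4%. End-only regions with no other start within 1 kb, also added after seeing the data, gave 22.8% induced and 23.9% uninduced. With a window of 500 bp, genes with an end region numbered 3 for Wnt and TCF targets, 6 for Pol II machinery, 5 for housekeeping genes and 3 for liver, muscle and neuron markers. Where the promoter window overlapped a region, 74.0% held a GC box and 21.4% an ETS core. Depth per sample is not in the lists, so weak regions near the lowest −log10 q may be missed in either condition.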
